A study of Mus musculus with 6 samples.

Results

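The comparison described here is that of mouse CD4 T cells after 3 days and after 1 h of culture toward the Th9 state, without interleukin 1β (IL-1β). It uses 2 of the 6 libraries of the series, 1 at each time, and 7689 of 23091 gene symbols, those with at least 5 FPKM in either library. FPKM is a fragment value per length of transcript and per mapped fragments of the library. The naive cells came from spleen and nodes of wild-type C57/Bl6j mice aged 7 weeks. Both cultures used plates coated for CD3 and CD28 stimulation, 20 ng/ml IL-4, 2 ng/ml TGFb and an antibody that blocks IFNgamma. RNA was extracted from 300000 cells. The sources used here do not say whether cells of several animals were pooled. The 1 h library was made from RNA depleted of rRNA and the day 3 library from poly(A) RNA, so RNA selection and time cannot be told apart in any difference below. A second pair of cultures also received 10 ng/ml IL-1b. It shares no library with the first pair but has the same change of RNA selection, so it is given beside the results and is not a replicate. With 1 library per group no difference has a replicate check, and no p-value is given.

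A naive CD4 T cell that meets its antigen first switches on immediate early genes, whose messages encode transcription factors and feedback inhibitors and are mostly short-lived. Over the following days the cell enlarges, takes up nutrients, divides and adopts a helper state set by the cytokines around it. IL-4 and TGFβ together favour the Th9 state, named for interleukin 9, in which STAT6, GATA3, PU.1, IRF4 and BATF are known regulators. Most messenger RNAs carry a poly(A) tail, whereas rRNA, small nucleolar RNAs and the messages of replication-dependent histones lack one. The latter are kept by depletion of rRNA and largely lost by poly(A) selection.

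Most of the summed FPKM of the 1 h library came from small and structured RNA. FPKM is divided by transcript length, so this is not a share of fragments. Small and structured RNAs, a list of 672 symbols, held 87.1% of its summed FPKM and 0.0977% of the day 3 sum, and the 45S rRNA precursor Rn45s alone held 41.3% and 0.0403%. Snord22 and Snord15b, small nucleolar RNAs of the box C/D class, and Snora64, of the box H/ACA class, stood at 11484, 4352 and 3576 FPKM at 1 h, and each was listed at 0 at day 3. All 3 FPKM values lie above the authors' own upper bounds of 493, 517 and 165, as did those of 19 of the 26 small or structured RNAs compared at 1 h. These levels and the summed share are therefore uncertain. The sequences below, from GENCODE M21 transcripts on GRCm38, show the kind of transcript concerned and were chosen with their values known. Snora81 and Snora44 were looked at first and set aside because the search found no ACA box near their 3′ ends. Capitals mark the boxes that a search by letters found, box C (TGATGA) and box D (CTGA) or the ACA box near the 3′ end. In Snord22 the search found box D and no exact TGATGA. Snord22 lies at chr19:8725866-8725991 on the plus strand, Snord15b at chr7:99479563-99479707 on the minus strand and Snora64 at chr17:24720772-24720905 on the plus strand.
Snord22: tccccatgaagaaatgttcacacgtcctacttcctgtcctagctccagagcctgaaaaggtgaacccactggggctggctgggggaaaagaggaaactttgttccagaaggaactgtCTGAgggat
Snord15b: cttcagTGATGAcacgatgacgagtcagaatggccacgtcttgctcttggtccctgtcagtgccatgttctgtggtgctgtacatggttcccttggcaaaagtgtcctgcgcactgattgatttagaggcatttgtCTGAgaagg
Snora64: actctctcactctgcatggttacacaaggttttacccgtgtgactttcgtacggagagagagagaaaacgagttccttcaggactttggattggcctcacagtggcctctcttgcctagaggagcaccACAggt

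Messenger RNA was measured with little precision at 1 h. Only 631 genes reached 5 FPKM there, against 7638 at day 3, and the median half-width of the authors' interval over such genes was 69.9% of the FPKM against 23.4%. Read depth is unknown. Of the 7689 genes compared, 4442 were above 0 in both libraries, 3221 (41.9%) were listed at 0 at 1 h and 26 (0.338%) at day 3. The share listed at 0 at 1 h was 53.0% among genes at 5 to 10 FPKM at day 3, 39.6% at 20 to 50 FPKM and 10.7% at 300 FPKM or more. A listed 0 at 1 h was thus common for low genes, and no fold is given against it.

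To compare messages, each 1 h value was multiplied by 11.03, which sets to 1 the median ratio of the 580 genes with at least 5 FPKM in both libraries. Ratios below are log2 of scaled FPKM + 1, day 3 over 1 h, and FPKM are as deposited unless called scaled. A gene is called higher or lower at day 3 when it was above 0 in both libraries, its ratio was at least 2-fold, its larger FPKM was at least 5 and the authors' intervals did not overlap after scaling. By this rule 597 of 4442 genes were higher (13.4%) and 155 were lower (3.49%), and the median ratio of the 4442 genes was 0.32. Other scalings moved that median to 0.00 (median ratio of all 4442 genes), -0.06 (equal upper quartiles), -0.50 (equal sums of FPKM without transcripts lacking a poly(A) tail) and 3.03 (none). Genes were also ranked within each library by percentile among the 7689, and 590 of the 597 higher genes stood at a higher percentile at day 3, as all 155 lower genes stood at a lower one. Genes listed at 0 at 1 h share a percentile of 20.9 there, and the median change over the 4442 genes was -13.5. A fall was thus the usual direction, so the falls of the lower genes are no check on their calls. Of the 155, 125 had a higher deposited FPKM at day 3 and are lower only relative to other messages. The other 30 were lower in deposited FPKM as well. The lower bound at 1 h was 0 for 484 of the 597 higher genes and for 0 of the 155 lower ones. Most higher ratios thus rest on imprecise 1 h values. A lower call needs a 1 h interval above 0, which 3421 of the 4442 genes lack. A count of 0 lower in a list below therefore carries little weight. The shares of 13.4% higher and 3.49% lower over all 4442 genes are the background for the counts per list below.

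**Figure D1:**
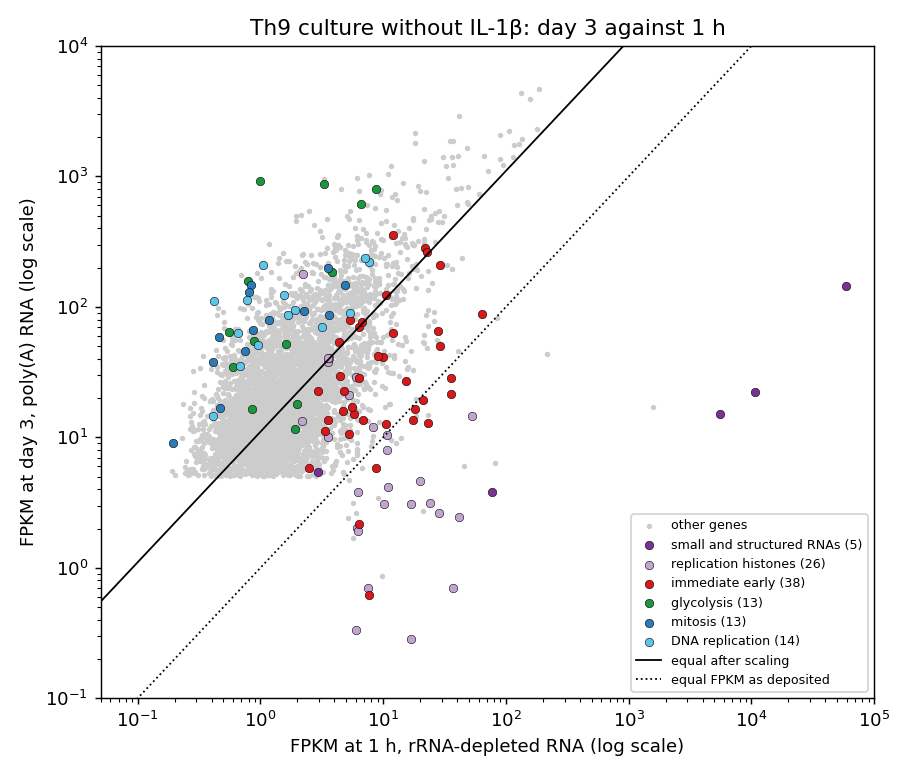
Each point is a gene above 0 in both libraries, with its FPKM at 1 h (rRNA-depleted RNA) on the x axis and at day 3 (poly(A) RNA) on the y axis, both log scales, with selected gene lists in colour; the solid line marks equal values after scaling by 11.03 and the dotted line equal values as deposited. Most of the 4442 genes lie above the dotted line, and Rn45s and other RNAs without a poly(A) tail lie far to the right.

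Immediate early genes were often lower at day 3 relative to other messages. Of the 40 genes of this list, 38 were above 0 in both libraries, of which 19 were lower at day 3 and 1 higher, with a median ratio of -1.73 against 0.32 over all genes (without any scaling, 1 was lower and 21 higher, with a median of 1.47). Cd69, a C-type lectin that holds newly activated lymphocytes in tissue (mm9 chr6:129217343-129225387), stood at 23.3 FPKM at 1 h (interval 13.2 to 34.4) and 12.9 at day 3 (8.17 to 17.4), a ratio of -4.22. Fosb, an AP-1 subunit, stood at 7.68 FPKM (3.97 to 11.3) and 0.618 (0.146 to 1.17), a ratio of -5.73. The intervals of Fosb did not overlap even as deposited, while those of Cd69 did so as deposited and not after scaling. In percentile terms Cd69 went from 98.8 to 36.3 and Fosb from 95.6 to 0.371. The median change in percentile over all genes above 0 in both libraries was -13.5.

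Several families were represented among the lower early genes. Among the AP-1 and EGR transcription factors, Fos stood at 8.82 and 5.84 FPKM (-3.84), Egr1 at 35.9 and 28.5 (-3.75), Egr2 at 17.5 and 13.6 (-3.73), Egr3 at 15.2 and 26.8 (-2.60) and Fosl2 at 10.5 and 12.6 (-3.10). The orphan nuclear receptors of the NR4A family, which respond to antigen receptor signalling, were all lower: Nr4a1 stood at 63.5 and 87.9 FPKM (-2.98), Nr4a2 at 6.38 and 2.15 (-4.50) and Nr4a3 at 21.0 and 19.4 (-3.51). All 3 NR4A genes were also lower with IL-1β. Negative regulators of NF-κB and of message stability were lower too, with Nfkbid at 35.7 and 21.4 FPKM (-4.14), Tnfaip3, which encodes A20, at 18.1 and 16.4 (-3.53) and Zfp36, an RNA-binding protein that speeds decay of cytokine messages, at 29.2 and 49.8 (-2.67).

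Other early genes did not meet the rule. Myc had a ratio of 0.05 (6.66 and 75.9 FPKM), Nfkbia of 0.10 (10.5 and 124), Pim1 of 0.08 (22.7 and 266), Dusp5 of -0.01 (6.39 and 70.1) and Junb of -0.61 (29.1 and 210). Jun itself was listed at 0 at 1 h and stood at 5.55 FPKM at day 3. Socs1, an inhibitor of cytokine receptor signalling, was the higher member at 12.0 and 355 FPKM (1.42), but was not called with equal upper quartiles or equal sums. The early list was thus not uniform, with several AP-1, EGR and NR4A genes far below 0 on this scale and Myc and Pim1 near 0.

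**Figure D2:**
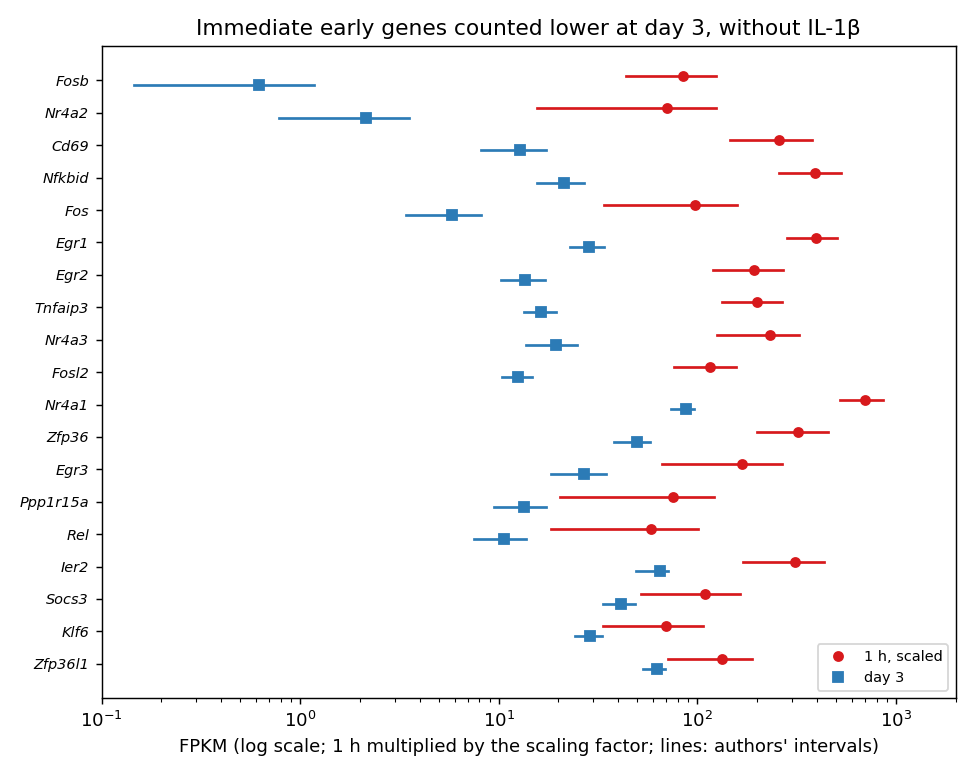
Scaled FPKM at 1 h (circles) and FPKM at day 3 (squares) of the 19 immediate early genes called lower, on a log axis, with the authors' intervals as lines. The largest gap is that of Fosb (ratio -5.73) and the smallest that of Zfp36l1 (-1.07); without scaling 10 of the 19 have a higher FPKM at day 3.

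Genes of naive and quiescent T cells did not move together. Of the 37 genes of this list, 33 were above 0 in both libraries, 2 were higher and 4 lower, with a median of -0.24 (2.90 without scaling). The antiproliferative genes Btg2 (23.4 and 14.8 FPKM, -4.04) and Btg1 (27.3 and 55.5, -2.42), the zinc finger gene Klf3 (7.92 and 8.63, -3.20) and S1pr1, the receptor that guides egress from lymph nodes (9.67 and 39.8, -1.40), were lower. All 4 were lower with IL-1β as well. The homing receptor gene Ccr7 (9.39 FPKM and 107, 0.05), the quiescence factor gene Klf2 (5.14 and 48.9, -0.21) and Il7r (4.20 and 28.4, -0.68) were not called. Tcf7 (5.16 and 167 FPKM, 1.54) and Lef1 (4.64 and 115, 1.16), which encode transcription factors of naive and memory T cells, were higher without IL-1β and not called with it. With equal sums, 11 of the 33 were lower and 0 higher.

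Cytokine genes rested largely on listed zeros at 1 h. Of 20 cytokine genes, 16 were compared, and 11 of these were listed at 0 at 1 h against 41.9% of all genes compared. Il9 (mm9 chr13:56580638-56583607) was listed at 0 at 1 h and stood at 39.8 FPKM at day 3 (16.5 to 48.4), and with IL-1β at 0 and 274. Il4 reached 21.2 FPKM, Il13, another type 2 cytokine gene, 74.8, Il10 7.51 and Il24, a member of the IL-10 family, 195 FPKM at day 3, all from a listed 0 in both arms. Of the 5 cytokine genes above 0 in both libraries, Tgfb1 (2.20 and 256 FPKM, 3.35) and Lif (0.587 and 58.5, 2.99) were higher, while Ifng (2.03 and 44.0, 0.95), Tnfsf8 (4.12 and 28.9, -0.64) and Cd40lg (5.84 and 26.4, -1.26) were not called. With equal sums Lif was not called (2.22).

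Transcription factor genes of helper states were of both kinds. Of 29, 20 were compared and 15 were above 0 in both libraries, with 3 higher, 1 lower and a median of 0.18 (-0.15, -0.21 and -0.67 by the scalings on all genes, upper quartiles and sums, each of which left 1 higher). Batf was higher at 2.84 and 122 FPKM (1.93), as were the hypoxia factor gene Hif1a (1.86 and 109, 2.36) and Nfil3 (2.32 and 82.4, 1.65). Gata3, the Th2 master regulator, was listed at 0 at 1 h and stood at 194 FPKM at day 3. With IL-1β it stood at 3.29 and 204 FPKM and was higher (2.60). Irf4, which antigen receptor signalling induces within hours, already stood at 6.61 FPKM at 1 h and at 118 at day 3 (0.68, not called). Sfpi1, the gene of PU.1, was listed at 0 at 1 h and at 0.488 FPKM at day 3, below the 5 FPKM needed to be compared. Smad7, an inhibitor of TGFβ signalling, was the lower gene (4.49 and 8.59 FPKM, -2.40).

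Receptors of the activated T cell included some of the most abundant day 3 messages. Of 26 receptor and costimulation genes, 20 were compared, 7 of them listed at 0 at 1 h, and 13 were above 0 in both libraries, with 4 higher, 1 lower and a median of 0.33 (-0.52 with equal sums, with 2 higher and 2 lower). Tnfrsf4, which encodes OX40, stood at 2.13 FPKM at 1 h (0 to 5.56) and 510 at day 3 (397 to 486, an interval that lies below the value), a ratio of 4.38. The 3 chains of the IL-2 receptor differed at 1 h: Il2ra, the inducible chain, was listed at 0 and reached 502 FPKM, Il2rb went from 3.36 to 261 (2.78) and Il2rg from 14.6 to 362 (1.16). Tnfrsf18, which encodes GITR, reached 548 FPKM and Tnfrsf9, which encodes 4-1BB, 174 from a listed 0. Tnfrsf1b, a TNF receptor gene, was lower (5.84 and 16.8 FPKM, -1.88). Icos (5.52 and 108, 0.82), Ctla4 (4.81 and 78.6, 0.56) and Cd28 (4.62 and 47.5, -0.10) were not called.

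Few genes of effector function and traffic could be compared, and 0 were lower. Over all 4442 genes 13.4% were higher and 3.49% lower. A lower call needs a 1 h interval above 0, which 3421 of the 4442 genes lack, so the 0 carries little weight. The granzyme gene Gzmb was listed at 0 and reached 378 FPKM, and the chemokine gene Ccl22 reached 93.3. Of 14 cytotoxic and chemokine genes, 6 were above 0 in both libraries and 1 was higher, the lysosomal gene Lamp1 (1.02 and 63.7 FPKM, 2.41), with a list median of -0.91. With equal sums 0 were higher. Of 16 homing and integrin genes, 8 were above 0 in both and 3 were higher, with a median of 0.84. These were the chemokine receptor Ccr8 (2.13 and 199 FPKM, 3.03), the selectin ligand Selplg (3.49 and 282, 2.84) and the integrin chain Itgb2 (3.95 and 169, 1.93), of which Ccr8 alone was also higher with IL-1β.

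The labelled cell type was checked against 15 genes of T cell identity, and all 15 were above 0 in both libraries. Of these, 9 were higher and 0 lower, with a median of 1.56 against 0.32 over all genes. Cd3e stood at 9.99 and 327 FPKM (1.56), Cd3g at 4.91 and 275 (2.32), Cd4 at 7.997 and 231 (1.38), Thy1 at 9.46 and 734 (2.80) and Lck, the kinase that starts antigen receptor signalling, at 5.30 and 226 (1.93). Ptprc, the CD45 gene, was not called (18.9 and 192, -0.12). With equal sums 3 of the 9 were still higher. Fewer cells of a type and less RNA per cell cannot be told apart in bulk RNA.

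Genes of cell division were often listed at 0 at 1 h and were higher at day 3 where they could be compared. Of 38 mitosis genes, 25 were listed at 0 at 1 h (41.9% of all genes compared), and of the 13 above 0 in both libraries 11 were higher and 0 lower, with a median of 2.34. Top2a, which encodes the topoisomerase that untangles chromosomes (mm9 chr11:98854261-98885503), stood at 0.845 FPKM at 1 h (0 to 2.05) and 147 at day 3 (135 to 157), a ratio of 3.85. The cyclin gene Ccna2 (0.805 and 131 FPKM, 3.74), the spindle motor gene Kif11 (0.459 and 58.2, 3.29) and Mki67, the gene of the proliferation marker Ki-67 (0.863 and 66.6, 2.68), followed. Among those listed at 0 at 1 h in both arms, Ube2c, a partner of the anaphase-promoting complex, reached 357 FPKM and Birc5, the survivin gene, 157.

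Replication genes were also higher where they could be compared. Of 41, 27 were listed at 0 at 1 h and 14 were above 0 in both libraries, with 10 higher, 0 lower and a median of 2.14. Rrm2, a subunit of the enzyme that makes deoxynucleotides, stood at 1.05 and 209 FPKM (4.06), the helicase subunit gene Mcm6 at 0.778 and 112 (3.56), the clamp gene Pcna at 7.72 and 222 (1.37) and the maintenance methyltransferase gene Dnmt1 at 0.420 and 111 (4.31). Ccnd2 (5.33 and 89.0, 0.59) and Cdt1 (3.15 and 69.7, 0.98) were not called. With equal sums 5 of the mitosis and 6 of the replication genes were higher.

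Promoters of these 2 lists and of the immediate early list were searched for short motifs, whatever the values of the members. Windows were at hand for 32 of 38 mitosis, 32 of 41 replication and 32 of 40 immediate early genes. Windows ran from 250 bases before to 50 after each start in RefSeq on GRCm38.p6, and both strands were read for 4 motifs: CCAAT (bound by NF-Y), TTTGAA (the core of the cell cycle homology region, CHR), TGACGTCA (the cAMP response element, CRE) and the CArG box (bound by SRF). CCAAT stood in 91.4% of the 35 mitosis windows, of 32 genes, against 37.4% of all 32851 windows, and TTTGAA in 77.1% against 17.9%. Of the 39 windows of replication genes, 51.3% held CCAAT and 10.3% TTTGAA. In the immediate early list, 3 of 32 genes held a CArG box and 3 held the CRE, against 1.81% and 2.03% of all genes, so most early promoters held neither in this window. The windows of Top2a (chr11:99024140-99024439, minus strand) and Kif11 (chr19:37376132-37376431, plus strand) show these motifs in 2 of the strongest mitosis genes and were chosen with their values known. Capitals mark CCAAT or its reverse complement ATTGG and TTTGAA or its reverse complement TTCAAA.
Top2a: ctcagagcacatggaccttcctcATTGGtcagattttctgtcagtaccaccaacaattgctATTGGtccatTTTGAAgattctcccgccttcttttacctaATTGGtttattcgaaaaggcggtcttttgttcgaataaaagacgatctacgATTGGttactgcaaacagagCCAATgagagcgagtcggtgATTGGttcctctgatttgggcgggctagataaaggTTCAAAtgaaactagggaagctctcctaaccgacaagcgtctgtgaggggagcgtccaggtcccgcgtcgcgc
Kif11: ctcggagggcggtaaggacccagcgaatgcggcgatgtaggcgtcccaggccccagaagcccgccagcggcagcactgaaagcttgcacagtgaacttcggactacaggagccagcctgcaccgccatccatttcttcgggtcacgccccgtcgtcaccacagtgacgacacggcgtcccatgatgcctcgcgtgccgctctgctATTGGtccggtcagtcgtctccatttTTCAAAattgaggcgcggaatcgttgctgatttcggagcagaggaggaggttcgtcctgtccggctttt

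Top2a holds 6 copies of CCAAT and 2 of TTTGAA, and Kif11 holds 1 of each. A match is a description of letters and not a site in use.

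Glycolysis genes were higher in most measurable cases. Of 20, 13 were above 0 in both libraries, 9 were higher and 0 lower, with a median of 2.38. Aldoa, the aldolase of the pathway, stood at 3.27 and 880 FPKM (4.57), the isomerase gene Gpi1 at 0.791 and 159 (4.04), Ldha, which makes lactate, at 8.72 and 795 (3.03) and the glucose transporter gene Slc2a1 at 0.884 and 55.0 (2.38). Gapdh had the highest ratio of all genes (0.990 and 914 FPKM, 6.26) and was listed at 0 at 1 h with IL-1β. It has many near-identical copies in the genome, and its day 3 FPKM lies above its own interval (734 to 830), as for 83 of the genes called, so its value is uncertain. Pfkfb3 (1.90 and 11.5, -0.81) and the lactate transporter gene Slc16a1 (2.00 and 18.0, -0.28) were not called.

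Lipid, mitochondrial and amino acid genes were likewise often higher. In each list 0 were lower, against 3.49% of all 4442 genes. Of the genes named here, Hmgcs1, Scd2, Atp5d, Mthfd2, Psat1 and Atf4 had a 1 h lower bound of 0 and could not be called lower. Of the sterol and fatty acid genes above 0 in both libraries, 9 of 17 were higher (median 1.34), among them the cholesterol synthesis gene Hmgcs1 (0.683 and 97.5 FPKM, 3.53) and the desaturase gene Scd2 (1.62 and 224, 3.58). Genes of the respiratory chain and citrate cycle were higher in 13 of 25 cases (median 1.65), with the ATP synthase genes Atp5d at 2.74 and 426 FPKM (3.77) and Atp5b at 7.43 and 600 (2.86). In the list of amino acid and one-carbon metabolism, 6 of 12 were higher (median 2.47), including the mitochondrial folate enzyme gene Mthfd2 (1.12 and 112, 3.09), the serine synthesis gene Psat1 (2.12 and 178, 2.88) and Atf4, the regulator of that programme (4.08 and 280, 2.61). With equal sums the counts were 5, 4 and 6 higher, and Slc38a2, an amino acid transporter gene at 6.45 and 38.8 FPKM, was then lower.

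Genes of protein synthesis and folding were mixed. Of 22 chaperone genes above 0 in both libraries, 15 were higher and 0 lower (median 1.58), but only 3 were higher with equal sums. Of the chaperonin subunits, which fold actin and tubulin, Cct8 (0.955 and 91.5 FPKM, 3.00), Cct3 (1.18 and 106, 2.93) and Cct5 (2.65 and 181, 2.59) had the highest ratios, whereas Hspa8 (23.6 and 467, 0.84) and Hspa5 (16.2 and 180, 0.02) were not called. Of 20 ribosome biogenesis genes, 6 were higher (median 1.11), such as Nme1 (1.97 and 117, 2.38) and the nucleolar helicase gene Ddx21 (0.932 and 45.5, 2.04), and 0 with equal sums. Of 59 ribosomal protein genes, 9 were higher and 3 lower, with a median of 0.47 that turned to -0.39 with equal sums, with 4 higher. Rpl32 (18.2 and 2145 FPKM, 3.41) was among the higher and Rps3a (36.5 and 194, -1.05) among the lower, and both are uncertain because ribosomal protein genes have near-identical copies.

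**Figure D3:**
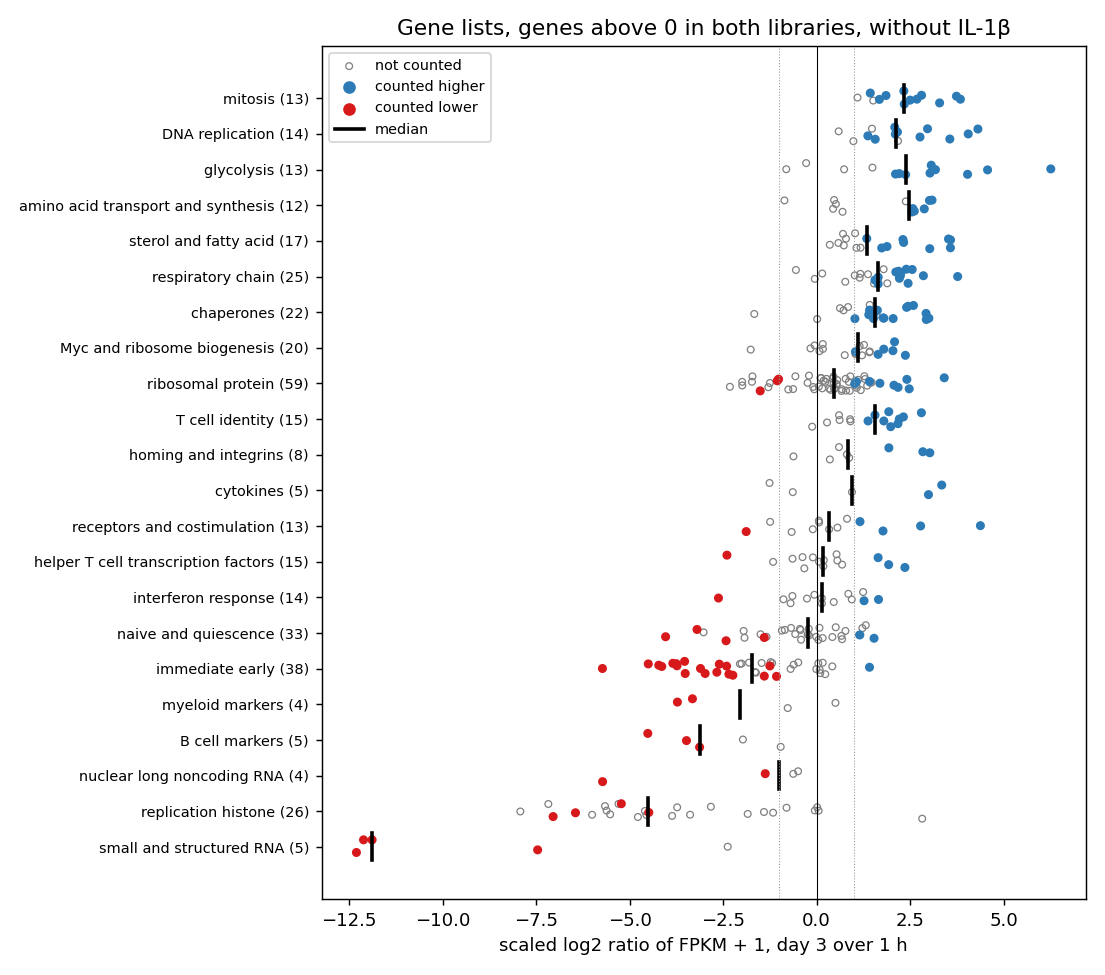
Scaled log2 ratios, day 3 over 1 h, of the members of each gene list that were above 0 in both libraries (number in brackets), with the list median as a bar, genes called higher in blue, lower in red and others open. Mitosis, replication and glycolysis medians lie above 2 and the immediate early median at -1.73; the medians of ribosomal proteins, helper transcription factors, receptors and interferon response genes turn negative with equal sums, and without scaling the immediate early median is 1.47.

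Among the genes called, the highest ratios after Gapdh were those of Lgals1, the galectin-1 gene (3.30 and 949 FPKM, 4.67), Aldoa, the G1 cyclin gene Ccnd3 (1.17 and 301, 4.44), Tnfrsf4, Folr4, a folate receptor family gene (1.97 and 458, 4.34), the pentose phosphate gene Tkt (0.700 and 174, 4.33), Dnmt1, Fxyd5 (4.26) and Ahcyl2 (4.07). Tkt, Dnmt1 and Ahcyl2 were also among the 5 genes with the largest rises in percentile of those above 0 in both libraries, from 49.9 to 96.3 for Tkt, beside Jak2, the kinase gene (0.446 and 85.9 FPKM, 3.88), and H13 (0.492 and 91.5, 3.85). All genes named so far in this paragraph had a 1 h lower bound of 0, so their ratios are imprecise. The lowest ratios among genes called were those of Rpph1, the RNA of RNase P (-12.3), Rn45s (-12.1), Snord17 (-11.9), Lars2, a mitochondrial tRNA synthetase gene (1582 and 17.0 FPKM, -9.92), and the vault RNA Vaultrc5 (-7.46). Of the 155 lower genes, 147 are neither small or structured RNAs nor replication-dependent histone genes. The 147 include Lars2, which with IL-1β stood at 1558 FPKM at 1 h and 10.1 at day 3. Whether the 1 h fragments given to Lars2 came from its message was not tested. The other genes among the 10 lowest called were the histone genes Hist1h4n (-7.04) and Hist1h3e (-6.45), Beta-s, a haemoglobin gene (-6.93), Igj, the joining chain gene of antibodies (-5.87), and Fosb. Histone genes of 1 cluster are near-identical in sequence, so single members are uncertain, and Hist1h4c (-7.92) and Hist1h4k (-6.00) were not called. Of 26 replication-dependent histone genes above 0 in both libraries, 4 were lower and 0 higher (median -4.52, from -7.92 to 2.82). Another 5 were listed at 0 at 1 h, among them Hist1h2ao, which stood at 1311 FPKM at day 3 (1166 to 1457). The histone list summed to 439 FPKM at 1 h (4839 scaled) and 1839 at day 3. With IL-1β 2 histone genes were higher and 8 lower. The nuclear RNA Malat1 (214 and 43.8 FPKM, -5.72) and Neat1 (9.90 and 41.6, -1.37) were lower, while the other 2 nuclear or host RNAs above 0 in both were not.

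Markers of other cells were present at both times. The 9 B cell markers in the files summed to 113 FPKM at 1 h (1248 scaled), with 1 of them at 0, and 113 at day 3. Of 5 compared 3 were lower, Cd74 (83.8 and 82.0 FPKM, -3.48), Cd79a (9.10 and 3.44, -4.51) and Cd79b (8.17 and 9.43, -3.13), with a median of -3.13. Myeloid markers, 14 in the files with 9 at 0 at 1 h, summed to 53.8 FPKM at 1 h (594 scaled) and 209 at day 3. Of 5 compared, 1 was listed at 0 at 1 h, and the largest day 3 value was 114 FPKM. Ratios of the 4 above 0 in both libraries ran from -3.72 to 0.51, 1 of them above 0. The class II genes H2-Aa (18.6 and 14.7, -3.72) and H2-Ab1 (18.5 and 19.5, -3.32) were called lower, and no myeloid marker was called higher. The red cell and platelet markers summed to 238 FPKM at 1 h (2627 scaled) and 10.5 at day 3. Nearly all of the 1 h sum came from the haemoglobin gene Hba-a1, at 215 FPKM at 1 h and listed at 0 at day 3. NK and CD8 markers summed to 20.0 FPKM at 1 h (220 scaled) and 60.7 at day 3. Ratios of the 4 above 0 in both libraries were all below 0, with a median of -1.62. Markers of stroma and epithelium summed to 2.76 FPKM (30.5 scaled) and 19.0. In these 2 lists 0 were higher and 0 lower. The sums are thus higher at day 3 as deposited and lower after scaling. The part of such cells in the differences above was not tested. Of 14 interferon response genes above 0 in both, 2 were higher, Tap1 (2.36 and 84.4, 1.66) and Ly6e (17.5 and 466, 1.27), and 1 was lower, Irgm1 (4.12 and 6.54, -2.62), with a median of 0.14 that was below 0 by each other scaling except none. By the scalings on all genes, upper quartiles and sums, 0 were higher.

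The cultures given IL-1β were compared in the same way. There 1367 of 5711 genes above 0 in both libraries were higher (23.9%) and 405 lower (7.09%), after multiplying the 1 h values by 9.99. The median half-width of the 1 h intervals was 42.1% of the FPKM there, and 22.2% of 7392 genes compared were listed at 0 at 1 h and 40 (0.541%) at day 3. Of the 597 genes higher without IL-1β, 411 were also higher with it (68.8% of the 597 and 30.1% of the 1367). Of the 155 lower, 119 were also lower (76.8% of the 155 and 29.4% of the 405). In the mitosis list 19 genes were higher with IL-1β, 7 of them higher in both arms, and of the immediate early genes 23 were lower, 18 of them in both. Klf6, a zinc finger gene, was the early gene lower without IL-1β alone (-1.25, against -0.80 with it, which was not called). No difference between the arms was tested, here or above.

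**Figure D4:**
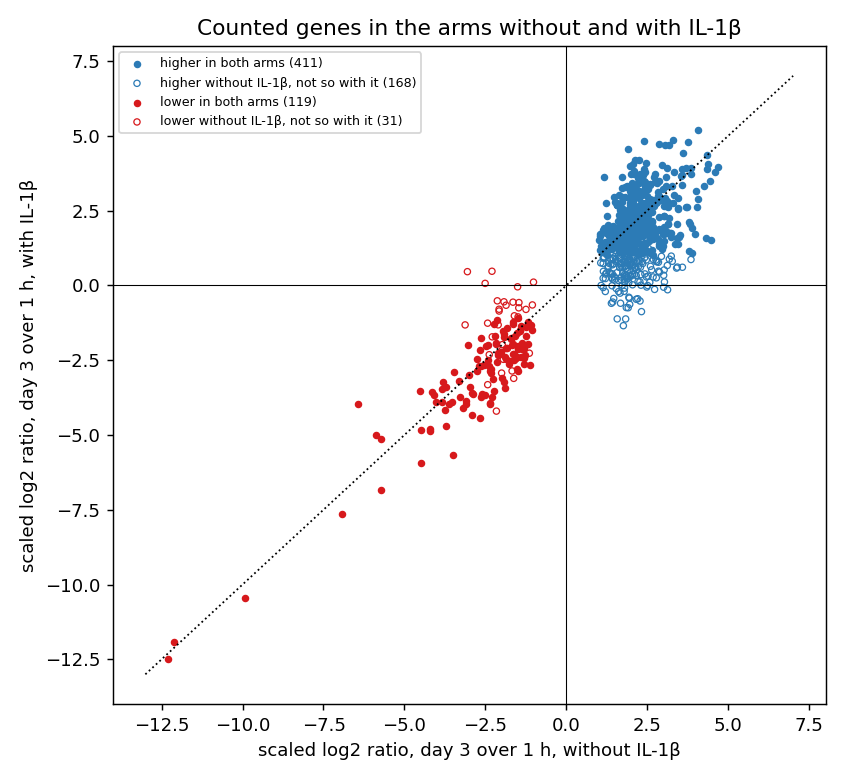
Scaled log2 ratios, day 3 over 1 h, of the 729 genes called without IL-1β that were above 0 in both libraries of each arm, without IL-1β on the x axis and with it on the y axis; filled points were called alike in both arms and open points only without IL-1β. Of those called higher, 549 of 579 had a ratio above 0 with IL-1β, and of those called lower 146 of 150 had one below 0. The median ratio with IL-1β was 0.58 over all 5711 genes above 0 in both libraries of that arm. A ratio above 0 was thus the usual direction there, and both arms share the change of RNA selection.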

How the data were processed

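RNA was sequenced on a MiSeq, per the labels' protocols, from RNA depleted of rRNA at 1 h and from poly(A) RNA at day 3. The authors deposited FPKM per gene with an interval (lower and upper bounds), per the file headers. The submitters' processing notes name TopHat and mm9. The version of TopHat, the tool that made the FPKM and the level of the intervals were not given in the sources used here. Of 23700 entries, 285 with a status other than OK were left out, and entries that share a symbol were summed with their bounds. Comparisons used a pseudocount of 1 FPKM, a minimum of 5 FPKM and the size rule given with the results. This was checked on simulated data. The 26 gene lists, the rule for named genes and the comparison were chosen with earlier results of these data known. Named genes are the 10 highest and 10 lowest ratios among genes called, up to 4 called members per list and direction, the 5 largest rises and 5 largest falls in percentile among genes above 0 in both libraries, and core genes. Other members were named after their values were seen, as were small RNAs and promoters shown. mm9 starts are counted from 1. Work used Python 3.11.15, numpy 2.4.6, pandas 2.3.3, statsmodels 0.14.6 and matplotlib 3.10.9. Another 12 settings planned with the comparison and 2 added after seeing the data were tried. The in vivo libraries were not used here. Results of some single genes are not reported here.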

Additional observations from a re-analysis of the deposited data

Results flagged for a closer look

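Srf, the gene of serum response factor, and the unnamed model 4921513D23Rik were called in opposite directions in the arms without and with IL-1β. Srf stood at 0.543 FPKM at 1 h and 23.8 at day 3 without IL-1β, a log2 ratio of 1.83. With IL-1β it stood at 3.96 FPKM at 1 h and 17.6 at day 3, a log2 ratio of -1.12. For 4921513D23Rik the ratio was 1.57 without IL-1β (0.281 and 11.2 FPKM) and -1.12 with it (1.57 and 6.65 FPKM). Deposited FPKM of both genes was higher at day 3 in both arms, so the lower calls with IL-1β are relative to other messages. The difference between the arms was not tested, since each arm has 1 library per time, and the 1 h values without IL-1β have a lower bound of 0.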

How the results depend on the processing

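The counts of genes higher at day 3 (597) and genes lower at day 3 (155) depended on the scaling of the 1 h library. Without scaling, 4151 genes were higher and 11 lower. Equal upper quartiles gave 373 higher, and equal sums without transcripts lacking a poly(A) tail gave 190 higher and 304 lower. Without a condition on the intervals 1202 were higher and 609 lower, with a 4-fold minimum 340 and 89, and with genes listed at 0 included 3706 were higher. The arm with IL-1β, put in place of the other after seeing the data, gave 1367 and 405. Pseudocounts of 0.1 and 5, no filter, a minimum of 10 FPKM, the median ratio of all genes, the highest entry per symbol and a removed length trend (added after seeing the data) kept both counts within 1.5 times. Without scaling, the ratios of 12 named genes turned positive: Klf3 0.11, Btg1 1.00, S1pr1 1.94, Smad7 0.81, Tnfrsf1b 1.38, Rps3a 2.38, Rpl7 2.42, Irgm1 0.56, Neat1 1.96, Cd79b 0.19, H2-Ab1 0.074 and Nr4a1 0.46. The cause was not tested. With equal sums 26 named genes were no longer called. The 110 named genes checked include some that were not called to begin with, such as Myc and Irf4. The ratio fell with transcript length (Spearman's rho across 4127 genes -0.16, as a description). A lower call needs a 1 h interval above 0, which 3421 of the 4442 genes lack. No paired analysis was possible because each group has 1 library.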

Other observations

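Snord22 lies inside the mm9 locus of Snhg1, the gene of a host transcript of small nucleolar RNAs. Snord22 was at 11484 FPKM at 1 h and listed at 0 at day 3, and Snhg1 was listed at 0 at 1 h and stood at 55.6 FPKM at day 3. With IL-1β the values were 15747 and 0 for Snord22 and 0 and 157 for Snhg1. Snord15b lies in the ribosomal protein gene Rps3, which stood at 43.4 and 821 FPKM, and Snora64 in Rps2, at 28.6 and 545 FPKM. These directions carry no result of their own, since small RNAs entered the comparison mostly through their 1 h values, and 99.0% of all genes compared had a higher deposited FPKM at day 3. The values are given as a description and were chosen after they were seen.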
